A study of Mus musculus with 8 samples.

Results

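The genes of the insulin-like growth factor (IGF) system were measured in pericytes and SMCs freshly sorted from mouse skeletal muscle. The 10 genes were chosen by name from the 37979 genes of the expression table and are 2 ligands (Igf1 and Igf2), 2 receptors (Igf1r and Igf2r) and 6 binding proteins (Igfbp2 to Igfbp7). Each symbol occurred on a single row of the table, and all 10 were measured and entered the test.

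Hindlimb muscles came from Ai14+/-;SM22α-Cre+ mice of both sexes aged 3 to 4 months, and the pericyte and SMC libraries share this genotype. In these mice the SM22α promoter drives Cre recombinase and the red protein tdTomato then stays on, so cells that used the promoter at any earlier time are also labelled. Live cells negative for CD31 and CD45 and positive for PDGFRβ were collected as pericytes (tdTomato-) or SMCs (tdTomato+), with 4 libraries of each. Each library pooled several sorts to about 60000 cells, and the sample labels give all 8 libraries the same batch value. The paper names batch effects, along with individual differences, as a possible source of variation between replicates.

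IGF1 and IGF2 are secreted peptides that drive growth and survival of many cells, and in skeletal muscle IGF1 promotes fibre growth and repair. Both act through the receptor tyrosine kinase IGF1R, whereas IGF2R binds IGF2 without kinase activity and carries it, together with lysosomal enzymes, into the cell. Binding proteins hold IGFs in blood and matrix, where they can extend, deliver or block the action of the ligand, and proteases release the ligand by cutting them.

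The libraries had FPKM sums from 690247 to 1190435 in pericytes and from 656405 to 737839 in SMCs, and 12713 to 13194 genes reached 1 FPKM. Markers of other muscle cell types, among them endothelial and blood cells that the CD31 and CD45 gate should remove, were counted with limma on the log2(FPKM + 1) scale at a q value (Benjamini-Hochberg adjusted p) below 0.05. By this rule 11.2% of all genes tested were higher in SMCs and 10.6% lower, and 16.2% and 15.6% were at an unadjusted p below 0.05. Of 12 genes typical of fibroblasts and fibro-adipogenic progenitors, 10 were higher and 2 lower in SMCs, and their summed FPKM was 1774 to 2794 in pericytes and 5275 to 6385 in SMCs. The 2 lower genes, Dcn and Gsn, were listed at 0 in every SMC library. Their means of 840 and 787 FPKM over the pericyte libraries are part of the pericyte sums. Whether these 0 values mean no expression or missing values was not tested. The defining fibroblast gene Pdgfra had 2.60 ± 1.47 FPKM (SD, n = 4) over the pericyte libraries, against 40.0 ± 4.75 FPKM (SD, n = 4) over the SMC libraries. Of 6 tenocyte genes 5 were higher in SMCs (summed FPKM 211 to 663 in pericytes and 2609 to 3974 in SMCs), as were 8 of 10 endothelial genes (104 to 177 and 412 to 1318) and 7 of 11 macrophage and monocyte genes (897 to 1816 and 1383 to 2067). Of 11 T and B cell genes 10 were lower in SMCs, and their summed FPKM was 2034 to 3803 in pericyte libraries but 33.5 to 65.1 in SMC libraries. Among 11 pericyte markers 3 were higher in SMCs and none lower, and none of 10 smooth muscle markers passed in either direction (7 and 3 higher and 0 lower at an unadjusted limma p below 0.05). None of 5 satellite cell genes and none of 6 Schwann cell genes passed in either direction (1 and 0 higher and 0 lower at an unadjusted limma p below 0.05), and of 6 muscle fibre genes 0 were higher and 1 was lower. The gate genes themselves were measured: Pecam1 (CD31) had 24.96 to 59.7 FPKM in pericyte libraries and 102 to 301 FPKM in SMC libraries, and Ptprc (CD45) had 80.6 to 230.3 FPKM and 4.34 to 11.9 FPKM. For the positive gates, Pdgfrb (PDGFRβ) had 3.21 to 17.6 FPKM in pericyte libraries and 15.6 to 91.5 FPKM in SMC libraries. Tagln (SM22α), whose promoter drives Cre, had 165 to 551 FPKM and 499.7 to 1569 FPKM. Both genes overlapped between groups and did not pass (limma q = 0.0973 and 0.110). No gene of these lists other than Dcn and Gsn was listed at 0 in all libraries of a group. The pericyte and SMC names below are therefore those of the sort gates. In bulk samples fewer cells of a type and less RNA per cell cannot be told apart, and the part of these other cells in the IGF results was not tested.

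Of the 10 IGF genes, 5 were higher in SMCs at a q value below 0.05 (Igf1, Igf2, Igfbp3, Igfbp6 and Igfbp7) and 0 were lower, by limma over 27414 genes. Over all genes tested 11.2% were higher and 10.6% lower by this rule. At an unadjusted limma p below 0.05, 7 of the 10 genes were higher and 0 lower, beside 16.2% higher and 15.6% lower of all genes. With the fold threshold of the study, a log2 difference above 2, 4 of the 10 genes remained higher in SMCs (Igf1, Igfbp3, Igfbp6 and Igfbp7), where 2.66% of all genes were, and 0 of the 10 were lower by this rule, against 3.24% of all genes. In 6 of the 10 genes every SMC library lay above every pericyte library, as in 12.5% of all genes. The median log2 difference over the 10 genes, SMCs minus pericytes, was 1.43, beside -0.02 over all genes tested. The number of genes higher in SMCs was between 4 and 7 over 17 alternative settings, and Igf2 was the called gene whose result changed.

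**Figure D1:**
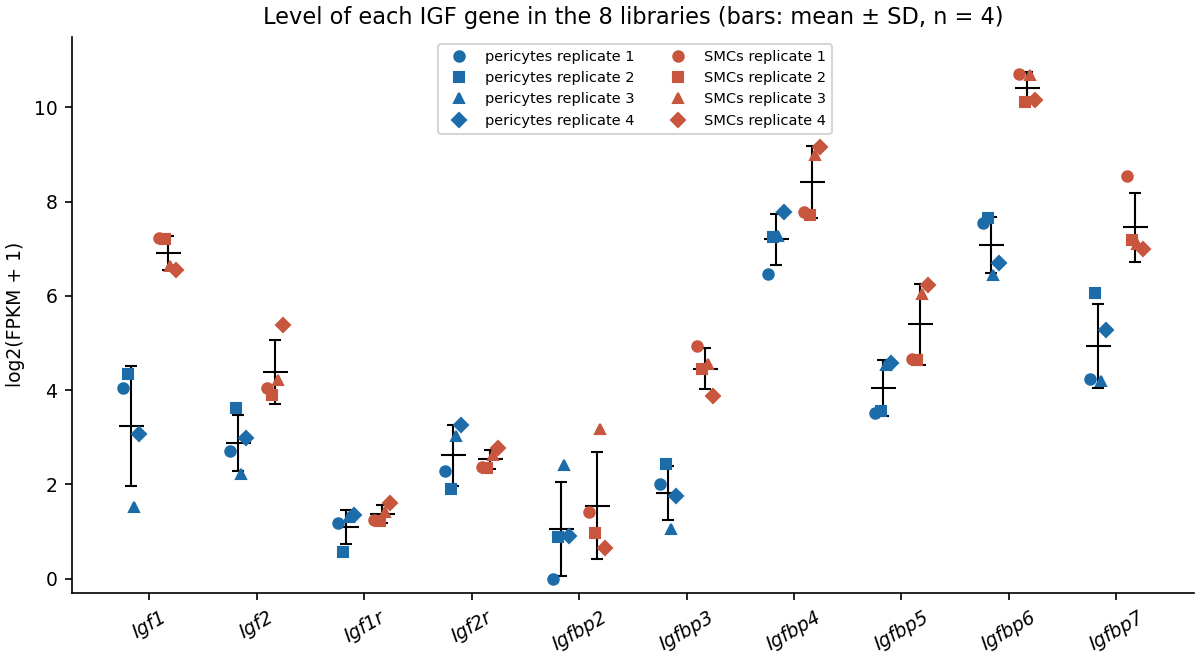
The level of each IGF gene, as log2(FPKM + 1) on the vertical axis, is shown for each of the 4 pericyte (blue) and 4 SMC (red) libraries, with black bars for the mean ± SD. The groups stand apart for Igf1, Igf2, Igfbp3, Igfbp5, Igfbp6 and Igfbp7 and overlap for Igf1r, Igf2r, Igfbp2 and Igfbp4.

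Both ligand genes were higher in SMCs. Igf1 lies on chromosome 10 of NCBI Build 37 (chr10:87321010-87399792, plus strand). It had 15.5, 19.4, 1.86 and 7.47 FPKM in pericyte replicates 1 to 4, and 149, 147, 98.6 and 93.4 FPKM in SMC replicates 1 to 4. All SMC libraries were far above all pericyte libraries, and pericyte replicate 3 was the lowest. The means were 11.1 ± 7.90 FPKM (SD, n = 4) over the pericyte libraries, against 122 ± 29.9 FPKM (SD, n = 4) over the SMC libraries. The log2 difference was 3.66 (standard error 0.60, limma q = 0.00480), which is 12.6-fold on the FPKM + 1 scale. It was the largest among the 10 genes with all libraries, but without pericyte replicate 3 it was 3.08, below the 3.12 of Igfbp6. It lay between 3.08 and 4.03 over the 17 alternative settings, all of which kept it past the threshold (limma q from 4.5e-04 to 0.0168).

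Igf2, the fetal growth factor expressed from the paternal allele, lies on chromosome 7 (chr7:149836673-149852721, minus strand). It had 5.50, 11.4, 3.64 and 6.95 FPKM in pericyte replicates 1 to 4, and 15.5, 13.9, 17.6 and 40.9 FPKM in SMC replicates 1 to 4. The groups did not overlap, but pericyte replicate 2 came close to SMC replicate 2, and SMC replicate 4 stood above the rest. SMCs exceeded pericytes by a log2 difference of 1.50 (standard error 0.41, limma q = 0.0391). This call was lost in 8 of 17 settings, among them those without pericyte replicate 1, 3 or 4 and without SMC replicate 1, 3 or 4 (limma q from 0.0557 to 0.0922 in these 6). Exons of Igf2 share 98 bases with the antisense transcript Igf2as, which had at most 0.472 FPKM in any library.

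The relation of the ligands also differed between libraries. Per length, Igf1 had 2.28 to 10.6 times the FPKM of Igf2 in SMC libraries (median 7.60), and 0.511 to 2.82 times in pericyte libraries (median 1.39). These ratios overlapped between groups, because SMC replicate 4 at 2.28 lay below pericyte replicate 1 at 2.82. Pericyte replicate 3 was the single library in which Igf2 exceeded Igf1.

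Neither receptor gene passed the test. Igf1r, the signalling receptor on chromosome 7 (chr7:75097713-75371484, plus strand), had 1.26, 0.482, 1.47 and 1.54 FPKM in pericyte replicates 1 to 4. It had 1.36, 1.34, 1.66 and 2.07 FPKM in SMC replicates 1 to 4. The groups overlapped, and pericyte replicate 2 was the lowest library. Limma gave a log2 difference of 0.27 (95% interval -0.17 to 0.72, limma q = 0.404).

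Igf2r, the clearance receptor on chromosome 17 (chr17:12875272-12962530, minus strand), had 3.85, 2.72, 7.22 and 8.64 FPKM in pericyte replicates 1 to 4 and 4.19, 4.13, 5.18 and 5.84 FPKM in SMC replicates 1 to 4. The pericyte libraries spread on both sides of the SMC libraries. Limma gave a log2 difference of -0.09 (95% interval -0.82 to 0.64, limma q = 0.885), and it was 0.10 after scaling every library to the same total (TPM). Per length, Igf2r had 2.82 to 3.13 times the FPKM of Igf1r in SMC libraries and 3.06 to 5.64 times in pericyte libraries, and was the more abundant receptor gene in all 8 libraries.

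The binding proteins held the most abundant genes of the system. Igfbp6, whose protein binds IGF2 in preference to IGF1, lies on chromosome 15 (chr15:101974793-101979942, plus strand). It had 186, 199, 86.5 and 102 FPKM in pericyte replicates 1 to 4, and 1672, 1102, 1657 and 1145 FPKM in SMC replicates 1 to 4. The lowest SMC library was above the highest pericyte library by a wide margin. The log2 difference was 3.33 (standard error 0.32, limma q = 4.0e-04), or 10.1-fold on the FPKM + 1 scale, and it stayed between 3.12 and 3.58 over 17 alternative settings. The mean level in SMCs, 10.42 on the log2(FPKM + 1) scale, was above that of 99.8% of all genes tested.

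Igfbp3, the main IGF carrier of blood plasma, lies on chromosome 11 (chr11:7106089-7113926, minus strand). It had 3.05, 4.44, 1.08 and 2.38 FPKM in pericyte replicates 1 to 4, and 29.7, 20.8, 22.6 and 13.7 FPKM in SMC replicates 1 to 4. The groups did not overlap, and SMC replicate 4 was the lowest of its group. SMCs exceeded pericytes by 2.64 on the log2 scale (standard error 0.33, limma q = 0.00148). Its neighbour Igfbp1, 3539 bases away and known as a liver gene, was listed at 0 in 7 of 8 libraries and had 0.0311 FPKM in SMC replicate 3.

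Igfbp7, a secreted protein of vessel walls that binds IGFs weakly, lies on chromosome 5 (chr5:77778265-77837070, minus strand). It had 17.9, 65.7, 17.4 and 37.5 FPKM in pericyte replicates 1 to 4, and 375, 146, 136 and 127 FPKM in SMC replicates 1 to 4. SMC replicate 1 stood apart from the other SMC libraries, which agreed closely. In limma the difference was 2.52 on the log2 scale (standard error 0.53, limma q = 0.0134). Without SMC replicate 1 it was 2.15, and the limma q value was between 0.00207 and 0.04999 over 17 settings. Exons of Igfbp7 share 85 bases with Polr2b on the other strand.

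Igfbp4, whose protein mostly blocks IGF action until it is cut, lies on chromosome 11 (chr11:98902558-98913969, plus strand). It had 88.0, 152, 154 and 219.9 FPKM in pericyte replicates 1 to 4, and 219, 210.2, 511 and 570.2 FPKM in SMC replicates 1 to 4. Pericyte replicate 4 reached the level of SMC replicates 1 and 2, so the groups overlapped. A log2 difference of 1.22 did not pass (95% interval 0.21 to 2.23, limma q = 0.0919). It passed in 3 of 17 settings, with a 1 FPKM filter, the replicate block or the replicate split as a covariate (limma q down to 0.00987).

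Igfbp5, a binding protein that attaches to extracellular matrix, lies on chromosome 1 (chr1:72904506-72921458, minus strand). It had 10.4, 10.7, 22.1 and 22.9 FPKM in pericyte replicates 1 to 4, and 24.4, 23.9, 64.9 and 74.1 FPKM in SMC replicates 1 to 4. The groups did not overlap, with 22.9 FPKM in the highest pericyte library and 23.9 FPKM in the lowest SMC library. The log2 difference was 1.35 (95% interval 0.23 to 2.47, limma q = 0.0915), and a two-sided exact permutation test of this gene alone gave p = 0.0286, the smallest value that 4 against 4 libraries allow. The same exact permutation test gave p = 0.0857 for Igfbp4. In limma, Igfbp5 passed in 3 of 17 settings, with a 1 FPKM filter, the replicate block or the replicate split as a covariate (limma q down to 3.3e-04).

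Igfbp2 is the neighbour of Igfbp5, with 5457 bases between the gene ends (chr1:72871077-72899048, plus strand). Pericyte replicate 1 listed it at 0, and replicates 2 to 4 of that group had 0.856, 4.29 and 0.888 FPKM. It had 1.66, 0.962, 8.05 and 0.568 FPKM in SMC replicates 1 to 4. Replicate 3 was the highest library in both groups, and the log2 difference of 0.50 (95% interval -1.11 to 2.11, limma q = 0.694) was within the spread between libraries. Without SMC replicate 3 the difference was -0.042.

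**Figure D2:**
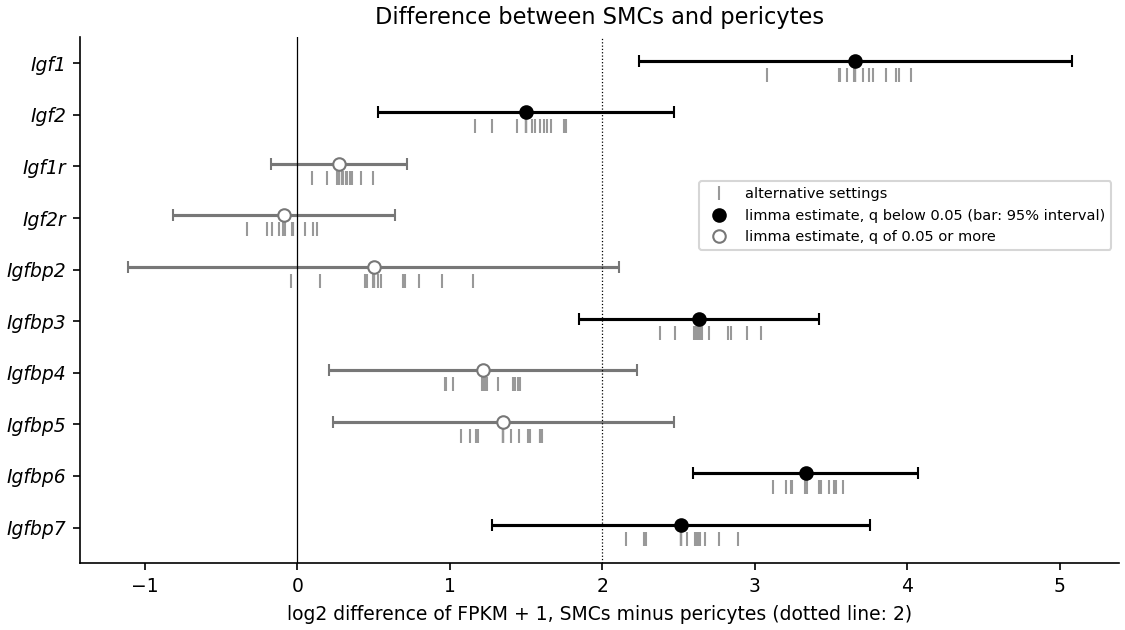
The log2 difference of FPKM + 1, SMCs minus pericytes, is shown for each gene as the limma estimate with its 95% interval, filled where q is below 0.05, with grey ticks for the alternative settings. Igf1, Igfbp3, Igfbp6 and Igfbp7 lie beyond the dotted line at 2, and the intervals of Igf1r, Igf2r and Igfbp2 include 0.

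The 4 genes past the fold threshold were compared for their upstream sequence. RefSeq start sites (GRCm38.p6) were matched for all 10 genes, giving 14 windows of 250 bases before a start, each found once in NCBI Build 37, whose coordinates are given. The Igf1 window lies inside the gene, whose annotated first base is 87321010, so it precedes a start further downstream. The 4 windows are shown because these genes were the ones higher in SMCs past the threshold, and capitals mark motifs found on either strand. One motif was the TATA box (TATAAA), the site of the general start machinery. A further motif was the GC box, a site known from promoters without a TATA box and spelled GGGCGG. The last marked motifs were the CCAAT box, which carries its letters in its name, and the CArG box of smooth muscle genes. AP-1 motifs and E-boxes were also searched and are left in lower case.
Igf1, chr10:87323606-87323855, plus strand: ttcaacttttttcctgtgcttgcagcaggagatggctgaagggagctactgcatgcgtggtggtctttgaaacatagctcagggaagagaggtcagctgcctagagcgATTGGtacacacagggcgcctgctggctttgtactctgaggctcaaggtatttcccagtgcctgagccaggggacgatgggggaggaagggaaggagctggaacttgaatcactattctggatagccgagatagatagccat
Igfbp3, chr11:7113927-7114176, minus strand: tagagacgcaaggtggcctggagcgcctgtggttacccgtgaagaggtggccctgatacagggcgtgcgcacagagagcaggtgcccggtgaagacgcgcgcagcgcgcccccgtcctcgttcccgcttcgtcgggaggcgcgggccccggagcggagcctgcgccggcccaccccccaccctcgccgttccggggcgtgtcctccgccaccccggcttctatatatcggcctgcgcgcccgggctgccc
Igfbp6, chr15:101974367-101974616, plus strand: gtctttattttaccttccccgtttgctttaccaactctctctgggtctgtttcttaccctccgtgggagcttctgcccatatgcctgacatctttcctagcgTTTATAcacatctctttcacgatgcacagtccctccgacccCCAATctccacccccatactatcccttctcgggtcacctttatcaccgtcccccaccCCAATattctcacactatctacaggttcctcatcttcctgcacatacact
Igfbp7, chr5:77837071-77837320, minus strand: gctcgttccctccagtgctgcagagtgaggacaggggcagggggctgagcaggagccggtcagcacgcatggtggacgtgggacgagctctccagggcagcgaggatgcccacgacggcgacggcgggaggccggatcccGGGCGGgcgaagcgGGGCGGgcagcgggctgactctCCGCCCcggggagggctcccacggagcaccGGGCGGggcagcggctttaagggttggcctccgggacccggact

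None of the motifs was in all 4 windows. The Igf1 window held 1 CCAAT box, on the reverse strand at position -142 counted from the base before the start, and an AP-1 motif (TGANTCA) at position -37. The Igfbp3 window held none of the marked motifs and the Igfbp6 window held 2 CCAAT boxes, at -107 and -50, and a reversed TATA box at -148. The Igfbp7 window held 4 GC boxes, the first at -110. Among 32536 RefSeq windows of the same length, 12.3% held a TATA box, 33.0% a GC box, 33.8% a CCAAT box, 6.73% an AP-1 motif and 1.48% a CArG box. E-boxes (CANNTG) were in 66.2% of windows and in those of Igf1, Igfbp3 and Igfbp6. Bases G and C made up 52.8% of the Igf1 window and 49.6% of the Igfbp6 window, beside 73.2% for Igfbp3 and 74.0% for Igfbp7 (median over all windows 52.4%). The single CArG box among the 14 windows was in one of the 4 windows of Igf2, and the single TATA box within 30 bases of a start was in Igfbp4, at -28. Such matches describe the letters only.

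Within each library, FPKM was summed over the 6 binding protein genes to compare their shares. The sum was 285 to 433 FPKM in pericytes and 1504 to 2399.8 FPKM in SMCs. Igfbp6 took 68.4% ± 6.32 (SD, n = 4) of the sum in the SMC libraries, against 40.9% ± 15.8 (SD, n = 4) of it in the pericyte libraries. Igfbp4 took 18.6% ± 8.79 (SD, n = 4) in the SMC libraries, against 43.7% ± 13.9 (SD, n = 4) in the pericyte libraries. The Igfbp6 share overlapped between groups, since it was 60.9% in pericyte replicate 1 and 59.3% in SMC replicate 4, and so did the Igfbp4 share, at 28.8% and 29.5% in these libraries. Igfbp7 took 9.52% ± 4.74 (SD, n = 4) in the SMC libraries, against 9.22% ± 4.35 (SD, n = 4) in the pericyte libraries, and Igfbp2, Igfbp3 and Igfbp5 each took less than Igfbp4 in all 8 libraries. The binding protein sum was 9.37 to 20.7 times the summed FPKM of both ligands in SMCs and 14.1 to 51.8 times in pericytes.

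**Figure D3:**
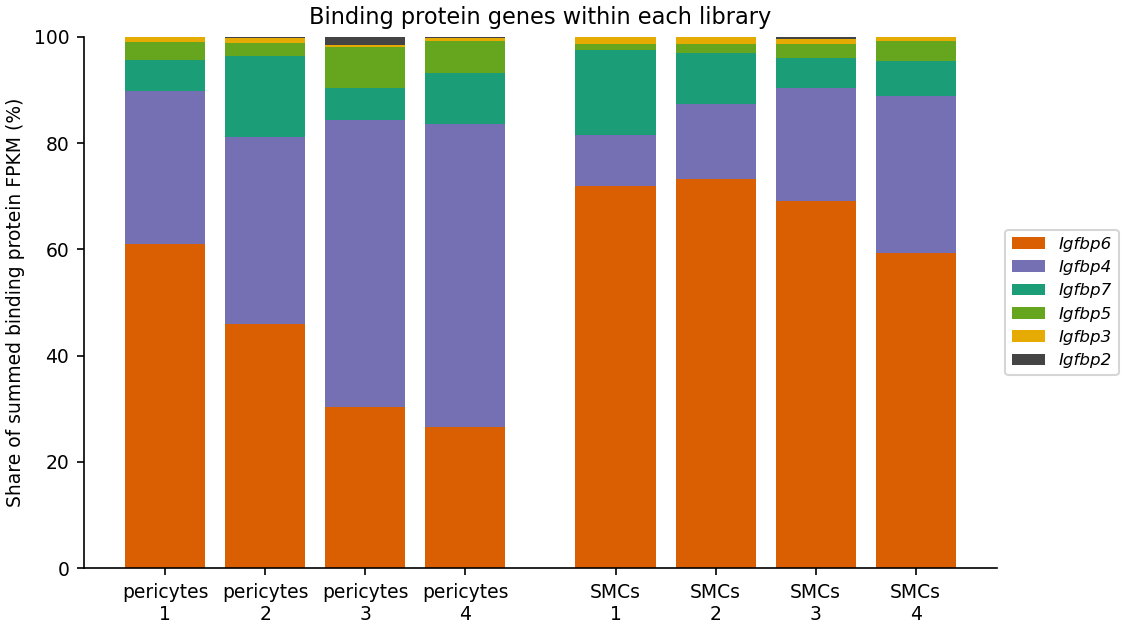
Stacked bars give the share of each binding protein gene in the summed binding protein FPKM of each library, in percent. Igfbp6 holds between 59.3% and 73.3% in SMC libraries, and Igfbp4 between 28.8% and 57.0% in pericyte libraries.

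The order of levels was set by the median log2(FPKM + 1) in each group. In SMCs the order was Igfbp6 (10.43), Igfbp4 (8.39), Igfbp7 (7.15), Igf1 (6.92), Igfbp5 (5.36), Igfbp3 (4.50), Igf2 (4.13), Igf2r (2.50), Igf1r (1.32) and Igfbp2 (1.19). Igfbp6 was above Igfbp4, Igf1 above Igfbp5, Igf2 above Igf2r and Igf2r above Igf1r without overlap of their ranges, and the other neighbours overlapped. In pericytes Igfbp4 (7.27) and Igfbp6 (7.12) led and overlapped, and both were apart from Igfbp7 (4.76). Every later neighbour overlapped in pericytes, in the order Igfbp5 (4.04), Igf1 (3.56), Igf2 (2.85), Igf2r (2.66), Igfbp3 (1.89), Igf1r (1.24) and Igfbp2 (0.90).

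The replicates were parted in the same way for several of these genes. Igfbp5 was higher in replicates 3 and 4 than in replicates 1 and 2, by 1.02 in pericytes and by 1.48 in SMCs on the log2 scale. Igfbp4 was higher in replicates 3 and 4 by 0.66 in pericytes and 1.33 in SMCs. Igf1 went the other way, with replicates 3 and 4 lower by a log2 difference of -1.90 in pericytes and -0.62 in SMCs, as did Igfbp3 (-0.82 and -0.47). The labels give no batch that parts these replicates. Within replicates 1 and 2 the SMC minus pericyte difference was 3.02 for Igf1, 2.46 for Igfbp3, 1.12 for Igfbp5, 2.81 for Igfbp6 and 2.72 for Igfbp7. Within replicates 3 and 4 it was 4.30, 2.81, 1.58, 3.86 and 2.31 for the same genes in that order. For Igf2 it was 0.81 within replicates 1 and 2 and 2.20 within replicates 3 and 4, values from 2 libraries a group that were not tested. With this split of the replicates as a covariate, Igfbp4 (limma q = 0.00987) and Igfbp5 (limma q = 3.3e-04) passed the threshold at log2 differences of 1.22 and 1.35. The labels do not give this split, and both genes step along it in these same data. Their smaller q values are therefore not separate support.

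**Figure D4:**
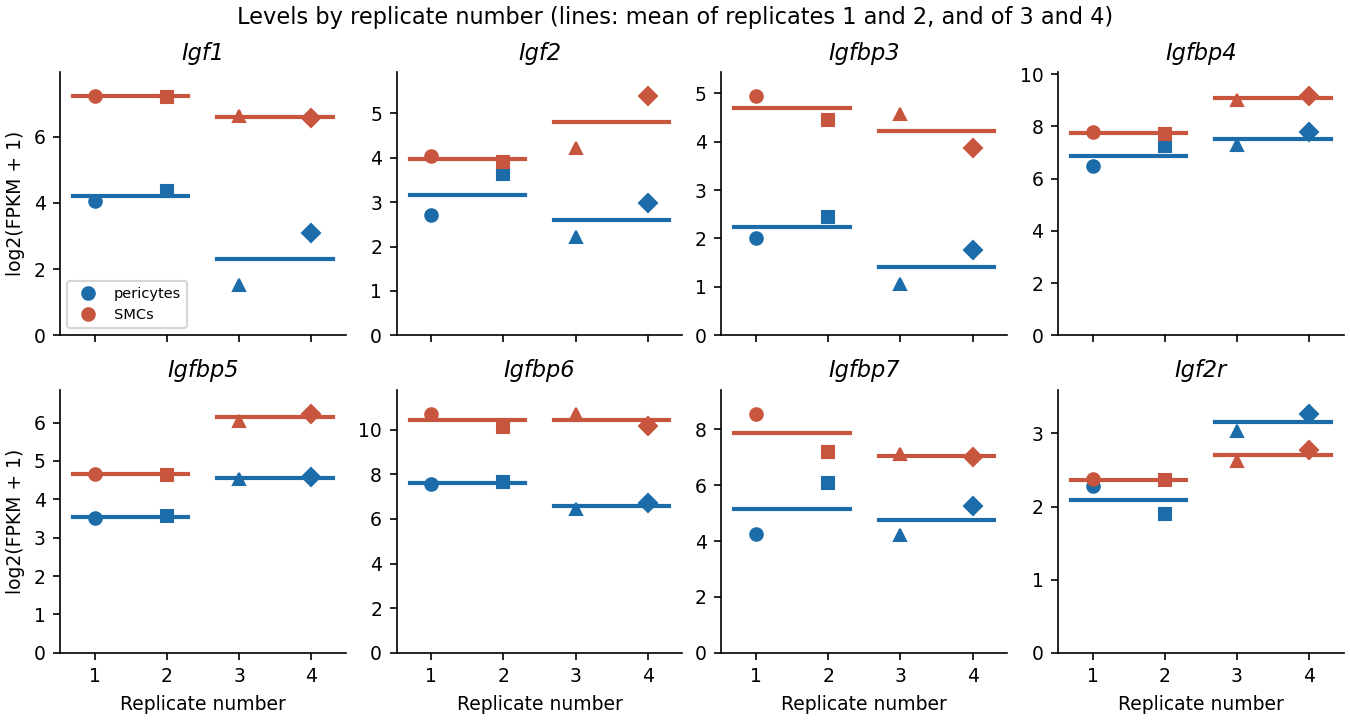
The log2(FPKM + 1) of 8 IGF genes is plotted against replicate number for pericytes (blue) and SMCs (red), with lines for the mean of replicates 1 and 2 and of replicates 3 and 4. Both groups of Igfbp4 and Igfbp5 step up between the lines, Igf1 steps down in both groups, and Igf2r is the gene whose groups cross.

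Genes with the most similar profile were found for the 5 called genes by the root mean square difference between log2(FPKM + 1) profiles over the 8 libraries, each centred on its mean, among 10237 other genes. For Igf1 they were Pi16 (0.28), Serping1 (0.36) and Dpt (0.36), of which Pi16 and Dpt are in the fibroblast marker list. For Igfbp6 they were Ndn (0.21), Rnase4 (0.26) and Vit (0.28), and for Igfbp3 Ptgis (0.12), Fam26e (0.15) and Hoxa10 (0.17). For Igf2 they were Cox7a1 (0.18), Gna14 (0.21) and Gm15270 (0.24), and for Igfbp7 Lysmd2 (0.28), Gm16118 (0.36) and Cda (0.38). Pi16 itself had 5.50 FPKM on average in pericytes and 74.5 FPKM in SMCs, a log2 difference of 3.69. Outside the called genes, the nearest to Igfbp5 was Kcnj8 (0.15), which is in the pericyte marker list.

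Other proteins that handle IGFs outside the cell were taken from a list of 12 genes. Of these, 6 were higher in SMCs and 0 lower at a limma q below 0.05 (6 and 0 at an unadjusted p below 0.05), where 11.2% of all genes were higher and 10.6% lower by the first rule. The median log2 difference of the list was 0.41, beside -0.02 over all genes, and it was 1.46 with a pseudocount of 0.1 and 1.61 over the 5 genes that passed a filter at 1 FPKM. A gene can pass that filter through its 4 SMC libraries alone, so the last median is no evidence of direction. Htra1, a secreted serine protease that cuts IGF binding proteins, had 8.41, 28.0, 18.1 and 28.5 FPKM in pericyte replicates 1 to 4 and 285, 142, 111 and 66.7 FPKM in SMC replicates 1 to 4 (log2 difference 2.74, limma q = 0.00951). This call was lost in 1 of 17 settings, the replicate block (limma q = 0.0534). Stc1, whose protein inhibits pappalysin proteases, had 2.03 ± 0.142 FPKM (SD, n = 4) over the pericyte libraries, against 10.8 ± 1.92 FPKM (SD, n = 4) over the SMC libraries, a log2 difference of 1.95 (limma q = 6.2e-05). Its relative Stc2 had a log2 difference of 0.81 (limma q = 0.0258), a call lost in 6 of 17 settings, among them those without pericyte replicate 2 or 4 or SMC replicate 1 or 2 (limma q up to 0.0685). Pappa, the pappalysin that cuts the protein of Igfbp4, was at or below 0.0842 FPKM in every pericyte library and between 0.253 and 0.402 FPKM in SMC libraries (log2 difference 0.36, limma q = 0.00435). This scale compresses such low values, and the difference reached 1.54 over 16 settings. Adam9, a membrane metalloprotease, had a log2 difference of 1.61 (limma q = 0.0231), a call lost in 4 of 17 settings, among them those without SMC replicate 2, 3 or 4 (limma q up to 0.0642). Ctsd, the lysosomal protease cathepsin D, had a log2 difference of 1.15 (limma q = 4.2e-04). Igfals, the plasma partner of Igfbp3 made by liver, was at 0 FPKM throughout the pericyte libraries and at 0.0408 to 0.597 FPKM in the SMC libraries. It did not pass (log2 difference 0.29, limma q = 0.183), and passed in 1 of 16 settings, the pseudocount of 0.1.

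Genes that carry the signal from the IGF and insulin receptors were taken from a list of 27. Of these, 3 were higher and 4 lower in SMCs at a limma q below 0.05. In this main setting the shares were near the 11.2% and 10.6% of all genes. With the filter at 1 FPKM, 2 of 25 genes tested were higher and 6 lower, beside 3040 and 2947 of 13349 genes. At an unadjusted p below 0.05, 4 were higher and 9 lower, beside 16.2% and 15.6% of all genes. Over 17 alternative settings 1 to 5 were higher and 2 to 8 lower at a limma q below 0.05. The 8 were lower with the replicate block, where 2978 of 27414 genes were lower. The median log2 difference was -0.20, or -0.04 with TPM scaling. Grb10, an adaptor that restrains the receptors, had 9.49 ± 5.65 FPKM (SD, n = 4) over the pericyte libraries, against 32.8 ± 7.48 FPKM (SD, n = 4) over the SMC libraries (log2 difference 1.83, limma q = 0.0196). This call was lost without pericyte replicate 4, SMC replicate 1 or SMC replicate 2 (limma q up to 0.0537). Grb2, the adaptor that links receptors to Ras, had 10.01 ± 3.41 FPKM (SD, n = 4) over the pericyte libraries, against 3.01 ± 0.664 FPKM (SD, n = 4) over the SMC libraries (log2 difference -1.41, limma q = 0.00804). The growth kinase Mtor was lower in SMCs (log2 difference -1.24, limma q = 0.0162), as were its substrate kinase Rps6kb1 (-1.06, limma q = 0.0208) and Pik3r1, the regulatory subunit of the kinase that produces the lipid signal (-0.75, limma q = 0.00439). With TPM scaling the calls of Rps6kb1 and Pik3r1 were lost, that of Rps6kb1 also without pericyte replicate 1 or SMC replicate 3, and both genes kept their sign in all 17 settings. Among the abundant genes of the list that did not pass were Eif4ebp1, an inhibitor of translation (log2 difference 0.81, limma q = 0.280), the phosphatase Ptpn1 (-1.16, limma q = 0.0621) and the kinase Akt2 (-0.17, limma q = 0.817). Over the 17 settings Ptpn1 passed in 6 (limma q down to 0.00794), Eif4ebp1 in 1 and Akt2 in 0. Irs1, a receptor substrate, was also higher in SMCs (0.29, limma q = 0.0492), and this call was lost in 12 of 16 settings. The insulin receptor gene Insr had 9.71 ± 2.45 FPKM (SD, n = 4) over the pericyte libraries, against 11.6 ± 3.92 FPKM (SD, n = 4) over the SMC libraries and did not pass (log2 difference 0.21, limma q = 0.672). The summed level of the list was 394 to 447 FPKM in pericytes and 356 to 456 FPKM in SMCs.

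**Figure D5:**
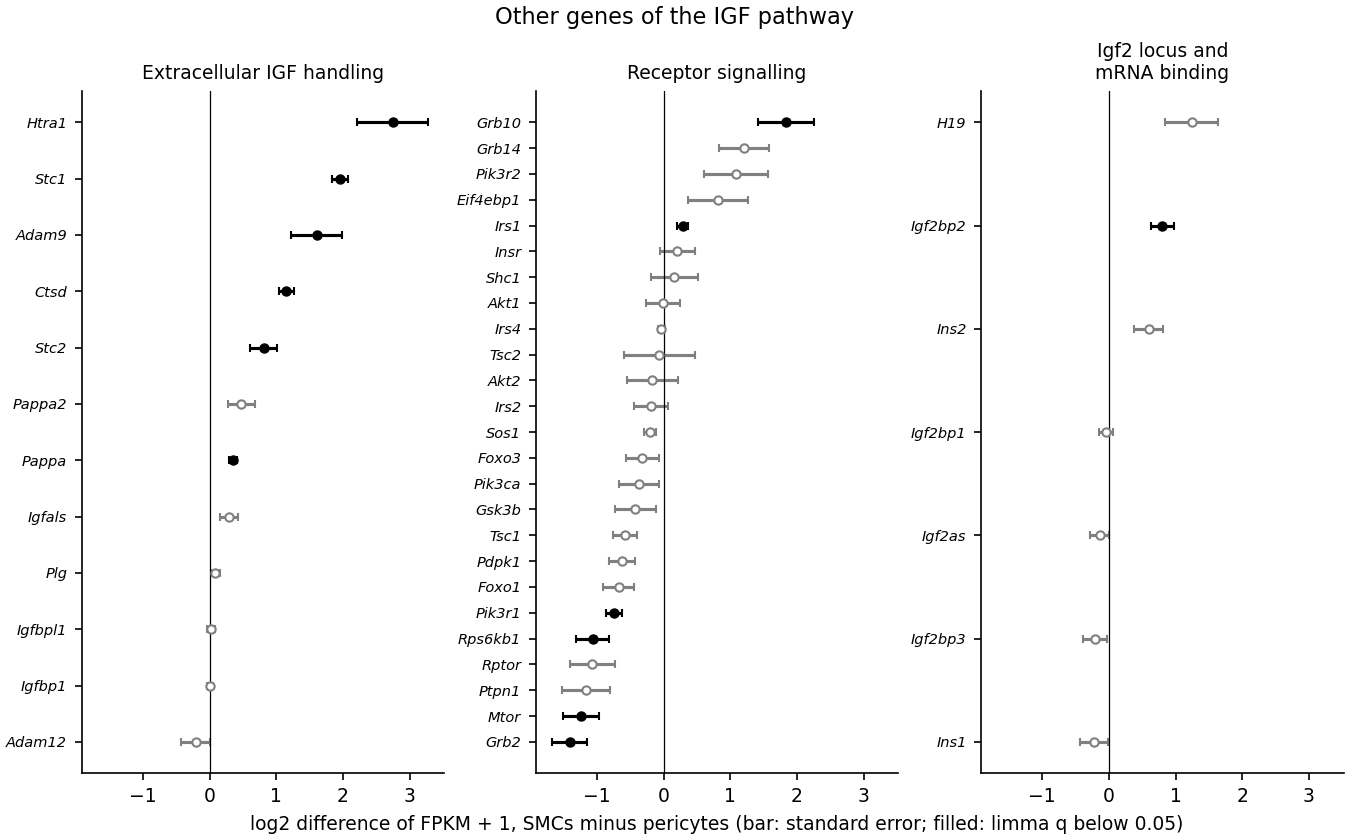
The log2 difference of FPKM + 1, SMCs minus pericytes, is shown with its standard error for the genes reported here from 3 lists around the IGF system, filled where the limma q is below 0.05. All 6 filled genes of the extracellular list lie to the right of 0, and the receptor signalling list has 2 filled genes to the right and 4 to the left.

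The neighbours of Igf2 and the proteins that bind its mRNA formed a list of 7, in which 1 gene, Igf2bp2, was higher in SMCs (log2 difference 0.80, limma q = 0.0152) and 0 were lower (3 and 0 at an unadjusted p below 0.05). The first count is 1 of 7 genes, near the 11.2% of all genes, and 16.2% of all genes were higher at the unadjusted p. H19, the maternally expressed RNA 72624 bases from Igf2, had 1.52, 2.84, 0.931 and 1.72 FPKM in pericyte replicates 1 to 4 and 11.0, 6.76, 3.28 and 2.96 FPKM in SMC replicates 1 to 4. Its groups did not overlap, and its log2 difference of 1.24 did not pass (limma q = 0.0653), though it passed in 5 of 17 settings (limma q down to 0.0137). Within SMCs, H19 was highest in replicate 1, whereas Igf2 was highest in replicate 4. The pericyte libraries all listed the insulin gene Ins2 at 0, and no SMC library had more than 1.06 FPKM of it.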

How the data were processed

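RNA from 4 pericyte and 4 SMC libraries was amplified with a SMART-Seq ultra-low input kit and built with Nextera XT, which does not mark strand. The authors checked reads with FastQC, aligned them with Bowtie2 and TopHat against NCBI Build 37 and the Ensembl annotation, and deposited FPKM, a read count scaled for transcript length and library size, per gene and library. The program that computed FPKM is not given in the sources used here. FPKM are not counts, so no counting error is given. Values under 0.3 FPKM gave relative depths that differed by at most 1.23 times.

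Values were taken as log2(FPKM + 1), a scale that understates changes of low genes, and fitted with limma 3.58.1 in R 4.3.3, with Benjamini-Hochberg adjustment over the 27414 genes above 0 in at least 1 library. On simulated data of 27414 genes, 56.0% of genes changed by 2 log2 units and 24.0% of those changed by 1 were called. Only 50 genes were changed at each size, all with a mean log2(FPKM + 1) of at least 2. In the real data 3060 genes were called higher and 2917 lower, so these rates need not hold there. The study calls the libraries biological replicates without saying which mice each pooled, so p-values measure the spread between these libraries. Single genes were also tested by two-sided exact permutation over 70 assignments. Figures were drawn with Python 3.11.15 and matplotlib 3.10.9. Gene positions are from GENCODE version M1.

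All IGF genes were named. Genes of the pathway lists were named where they passed q and a log2 difference of 1, and beyond that by mean FPKM. Pappa, Pik3r1, Insr, Irs1, Igfals, Igf2as, Igfbp1, Ins2 and Kcnj8 were named after their values were seen. A few genes counted in the lists are not reported here by name. The genes, lists and tests were chosen with earlier results of these data known. The alternatives tried were 0.1 as pseudocount, genes at 1 FPKM or more in 4 libraries or more, no filter, TPM, median-ratio and quantile scaling, the replicate number as a block, replicates 1 and 2 against 3 and 4 as a covariate, an intensity trend and each library left out. Their use on the pathway lists, and the values within replicates 1 and 2 and within 3 and 4, were added after seeing the data.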

Additional observations from a re-analysis of the deposited data

Results flagged for a closer look

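Among 32 groups of 4 values tested for a library far from the others, 3 stood out, and chance gives about 1 in 20. SMC replicate 1 stood apart for Igfbp7, with a gap to the nearest library of 0.872 of the range on the log2(FPKM + 1) scale. Replicate 3 stood apart for the share of Igfbp2 in the binding protein sum in both groups, with a gap of 0.847 of the range in pericytes and 0.862 in SMCs. Igfbp2 made up 1.50% of the sum in pericyte replicate 3 and 0.335% in SMC replicate 3.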

How the results depend on the processing

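Igf1, Igfbp3, Igfbp6 and Igfbp7 kept their direction and call in all 17 settings, and 4 genes passed the fold threshold in each. For Igf2 the log2 difference was 1.50 and the call was lost with no filter (limma q = 0.0843) and with the replicate block (limma q = 0.0662), and it was between 1.17 and 1.75 with 1 library left out. Igfbp4 (1.22) and Igfbp5 (1.35) passed with a filter at 1 FPKM (limma q = 0.0327 and 0.0303), with the replicate block (0.0292 and 0.00553) and with the covariate. Igfbp2 did not pass the filter at 1 FPKM and has no value there. The sign of Igf2r turned with TPM scaling (0.10) and ranged from -0.33 to 0.13 with 1 library left out, and that of Igfbp2 ranged from -0.042 (without SMC replicate 3) to 0.95. TPM scaling moved the median of genes averaging 1 FPKM or more from -0.05 to 0.16. Values within replicates 1 and 2 and within 3 and 4 were 0.81 and 2.20 for Igf2 and 2.81 and 3.86 for Igfbp6. A pseudocount of 0.1 raised the genes past the fold threshold in the whole table from 728 to 1421 higher and from 888 to 1328 lower in SMCs. Of the receptor signalling list, 5 genes were higher with the covariate and 1 with the intensity trend, and 1 to 3 with a library left out (without pericyte replicate 4 or SMC replicate 2 it was 1). In that list 2 were lower with TPM scaling, 8 with the replicate block and 7 with the covariate. Of the Igf2 neighbour list, 2 were higher with a pseudocount of 0.1, the filter, TPM scaling or the covariate, and 1 to 3 with a library left out (3 without SMC replicate 4). The call of Htra1 was lost with the replicate block (limma q = 0.0534). The cause of these shifts was not tested. Deviations of same-numbered libraries correlated across genes at 0.327 on average, from 0.0794 to 0.474 in the 4 pairs, and 2 of 4 pericyte libraries were closest to the SMC library of their own number, so the numbers were not taken as pairs. With the replicate block, 3175 genes were higher and 2978 lower in the whole table, against 3060 and 2917, and 6 IGF genes were higher against 5. The number of reads behind genes below 1 FPKM is unknown, which limits Igfbp1, Igfals and Pappa.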
